A study of Mus musculus with 6 samples.

Results

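Endothelial identity genes are the genes by which the cells lining blood vessels are usually recognised. They were followed here through 6 RNA sequencing libraries of mouse skull cells labelled as osteoblasts. The 10 members, Pecam1, Cdh5, Emcn, Tek, Tie1, Vwf, Cldn5, Egfl7, Esam and Erg, were found by symbol among the 17830 genes of the deposited count table, and all 10 were present. The study asked how osteoblasts that carry a mutant amyloid precursor protein change the skull and its marrow. The 3 control libraries came from mOCN-Cre; Ai9 mice and the 3 APPswe libraries from TgAPPswemOCN-Cre; Ai9 mice, all aged 6 months and, by the study's description of the sort, male.

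Both genotypes carried a Cre knock-in at the osteocalcin gene Bglap and the Ai9 reporter allele, from which Cre releases the red protein tdTomato. APPswe mice carried in addition a human APP transgene with the Swedish mutation under the broadly active CAG promoter, silent until Cre removes a stop cassette. The cells had grown out of calvarial bone fragments in culture and were sorted for tdTomato, so that they were selected by colour and not by type. The purity of the sort is not given in the sources used here. The labels do not say how many animals stand behind a library, and p-values measure the spread between these libraries only. Total counts were 17649704, 18134411 and 18398392 in control replicates 1, 2 and 3, and 17263757, 17555489 and 17483141 in APPswe replicates 1, 2 and 3. A floor of 3 counts per library corresponded to between 0.167 and 0.173 CPM (counts scaled by library size after TMM), and it covers counting error only.

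Endothelial cells line every vessel of bone, from the arterioles to the sinusoids of the marrow, and the sinusoidal and capillary lining supports both marrow cells and bone formation. Their identity rests on a set of adhesion molecules at the cell border, receptor tyrosine kinases that keep the lining quiescent, secreted products, and transcription factors of the ETS and SOX families. No member is a marker of osteoblasts, and most are low or silent in cultured stromal cells.

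Control replicate 2 stood apart from the other libraries before any endothelial gene was considered. It had 1 count of Bglap, the gene that drives Cre, where control replicates 1 and 3 had 159 and 204, and the APPswe libraries 115, 128 and 159. Counts of Uty, Kdm5d, Eif2s3y and Ddx3y, all Y-linked, came to 2 together in it, against between 2257 and 3406 in each of the others, although the study describes male mice. The library name in its label also differs from those of the others by the letter S where they have L, and the labels do not explain the letter. It is called by its label, and the tests of the members and the counts of called genes in each list are given with and without it. Fits without it compared 2 controls with 3 APPswe libraries. Their standard errors and p-values describe the spread of these few libraries only.

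All members but Vwf were highest in control replicates 1 and 3. Summed over the 10 members, control replicates 1 and 3 reached 269 and 290 CPM, and control replicate 2 reached 58.7 CPM. The APPswe libraries, in the order of their replicate numbers, which is kept for all values that follow, reached 26.6, 26.8 and 29.5 CPM. Control replicate 2 thus lay between the other controls and the APPswe libraries, but its sum was of another kind, because Vwf alone made up 93.8% of it. Without Vwf the sum was 231, 3.65 and 243 CPM in control replicates 1, 2 and 3, and 13.4, 12.4 and 15.1 CPM in the APPswe libraries, so that control replicate 2 became the lowest of the 6. In control replicate 2, 5 of the 10 members were at or under 3 counts, against none in control replicates 1 and 3 and 1 in each APPswe library. In bulk libraries of this kind fewer cells of a type and less RNA per cell cannot be told apart.

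**Figure D1:**
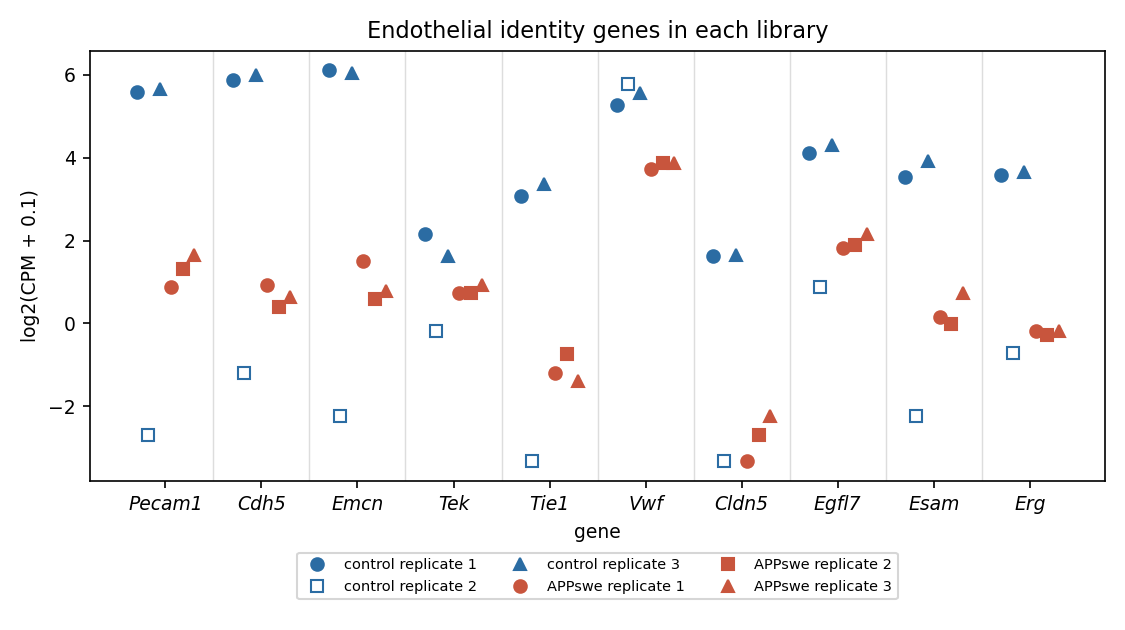
Level of each of the 10 genes in each library as log2(CPM + 0.1), with controls in blue, APPswe in red, and control replicate 2 as open squares. Control replicates 1 and 3 lie at the top for all genes but Vwf, which is highest in control replicate 2, and control replicate 2 lies lowest or shares the lowest value for the other 9.

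The junction and surface proteins of the endothelial border showed this pattern. Cdh5 (gene 12562, chr8:104101613-104144504) encodes VE-cadherin, the adhesion molecule of endothelial adherens junctions. Its counts were 1009, 6 and 1126 in the controls and 32, 22 and 26 in the APPswe libraries, or 58.3, 0.337 and 63.5 CPM against 1.79, 1.23 and 1.46 CPM. Control replicates 1 and 3 were high and close to each other, the APPswe libraries were low, and control replicate 2 was lower still, so that the groups overlapped. With all 6 libraries the log2 fold change of APPswe over control was -4.76 (standard error 1.42, edgeR quasi-likelihood test, Benjamini-Hochberg adjusted p = 0.0539). Leaving out control replicate 2, which left 2 controls against 3 APPswe libraries, gave -5.34 (standard error 0.13, edgeR adjusted p = 1.14e-09).

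Pecam1 (gene 18613, chr11:106654213-106715281) encodes CD31, the homophilic adhesion molecule by which vessels are commonly stained, and is also carried by platelets and some leukocytes. Its counts were 827, 1 and 895 in the controls and 31, 43 and 54 in the APPswe libraries. Emcn (gene 59308, chr3:137341062-137431069) encodes endomucin, a sialomucin of capillary, venous and sinusoidal lining that is high in the vessels coupled to bone formation. Its counts were 1191, 2 and 1170 in the controls and 49, 25 and 29 in the APPswe libraries. For both genes a single control had almost no reads and the other controls had more than any APPswe library. With all 6 libraries the log2 fold change was -3.77 for Pecam1 (standard error 1.40, edgeR adjusted p = 0.0985) and -4.54 for Emcn (standard error 1.48, edgeR adjusted p = 0.0695). The values without control replicate 2 were -4.36 (standard error 0.14, edgeR adjusted p = 6.05e-09) and -5.12 (standard error 0.16, edgeR adjusted p = 3.90e-09).

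Esam and Cldn5 belong to the tight junctions of the same border. Esam (gene 69524, chr9:37528089-37538319), an immunoglobulin-type adhesion molecule shared with platelets, had 197, 2 and 266 counts in the controls and 18, 16 and 28 counts in the APPswe libraries. Its log2 fold change was -2.92 (standard error 1.18, edgeR adjusted p = 0.123), and -3.50 (standard error 0.21, edgeR adjusted p = 3.81e-07) without control replicate 2. Cldn5 (gene 12741, chr16:18776847-18778262), the claudin that seals endothelial tight junctions, had 52, 0 and 54 counts in the controls and 0, 1 and 2 counts in the APPswe libraries. Control replicates 1 and 3 alone were above the floor of 3 counts. Over summed counts the control level was 35.8 times the APPswe level (95% exact binomial interval 11.9 to 177, counting error only), and 54.0 times (18 to 266) without control replicate 2. Cldn5 did not pass the filter on low counts with all 6 libraries, and its fitted value of -5.58 without control replicate 2 (edgeR adjusted p = 2.41e-06) rests on 3 APPswe counts.

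The receptors Tek and Tie1 were both highest in control replicates 1 and 3 and lowest in control replicate 2. Tek (gene 21687, chr4:94739086-94874976) encodes TIE2, the receptor for angiopoietins, and is also expressed by some macrophages and blood stem cells. Tie1 (gene 21846, chr4:118471191-118489849) encodes its co-receptor, which is more strictly endothelial. Tek had 76, 14 and 53 counts in the controls and 28, 28 and 32 counts in the APPswe libraries, and Tie1 had 144, 0 and 181 counts against 6, 9 and 5. Tek was above the floor in every library and had the smallest fold change of the members. Its log2 fold change was -0.72 (standard error 0.55, edgeR adjusted p = 0.380), and -1.16 (standard error 0.22, edgeR adjusted p = 0.00155) without control replicate 2. Without control replicate 1 the value for Tek was -0.20 (edgeR adjusted p = 0.827). Tie1 did not pass the filter with all 6 libraries. With no filter its log2 fold change was -4.02 (standard error 1.35, edgeR adjusted p = 0.0879), and without control replicate 2 it was -4.61 (standard error 0.24, edgeR adjusted p = 1.02e-07). Whether Tek and Tie1 differ in their change was not tested.

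The secreted members Egfl7 and Vwf were above the floor in all 6 libraries. Egfl7 (gene 353156, chr2:26581083-26592682), a matrix-bound regulator of vessel tube formation, had 299, 31 and 348 counts in the controls and 61, 65 and 78 counts in the APPswe libraries. Its log2 fold change was -1.76 (standard error 0.75, edgeR adjusted p = 0.141), and -2.27 (standard error 0.13, edgeR adjusted p = 2.76e-07) without control replicate 2. Vwf (gene 22371, chr6:125552948-125686679), the clotting glycoprotein stored in the Weibel-Palade bodies of endothelial cells and made by megakaryocytes as well, had 661, 979 and 829 counts in the controls and 236, 259 and 257 counts in the APPswe libraries. In CPM these were 38.2, 55.0 and 46.8 against 13.2, 14.4 and 14.4. All 3 controls lay above all 3 APPswe libraries, and control replicate 2 was the highest. Vwf fell, at -1.73 on the log2 scale (standard error 0.15, edgeR adjusted p = 0.000991), and at -1.59 (standard error 0.10, edgeR adjusted p = 6.25e-07) without control replicate 2.

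Erg (gene 13876, chr16:95359169-95586600) is the only transcription factor among the members, an ETS family protein that sustains the expression of endothelial junction genes. It had 204, 9 and 221 counts in the controls and 14, 13 and 14 counts in the APPswe libraries. The APPswe libraries were nearly equal to each other and lay a little above control replicate 2. The log2 fold change was -3.42 (standard error 1.01, edgeR adjusted p = 0.0536), and -3.97 (standard error 0.17, edgeR adjusted p = 2.25e-08) without control replicate 2.

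**Figure D2:**
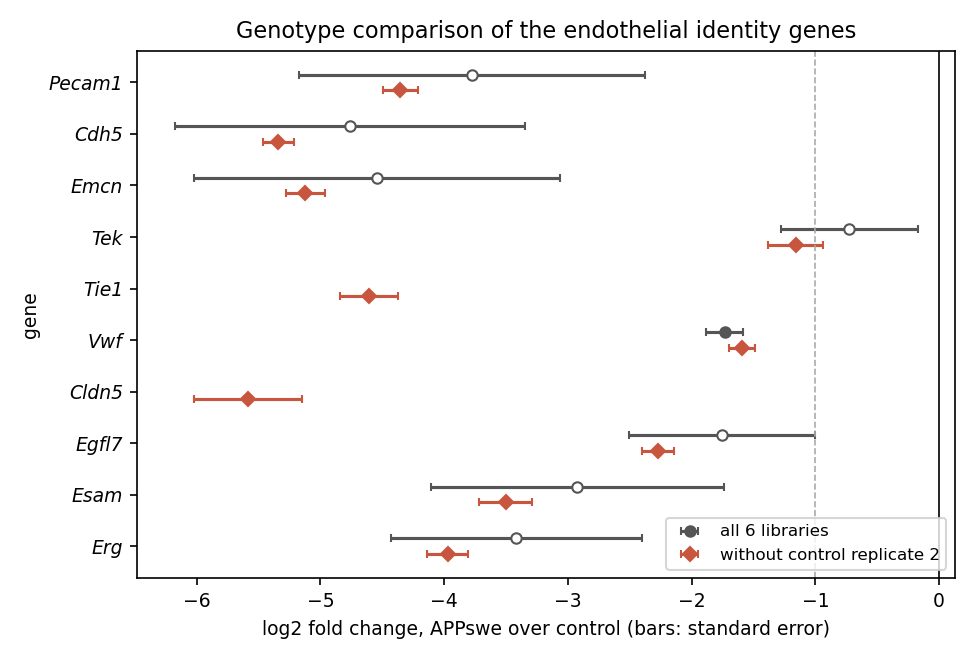
Log2 fold change of APPswe over control for each gene with all 6 libraries (grey circles) and without control replicate 2 (red diamonds), with the standard error as bars; filled symbols mark an adjusted p of at most 0.05, and the dashed line marks a log2 fold change of -1. Tie1 and Cldn5 have no grey symbol because they did not pass the filter on low counts, and the bars shrink for all 8 other genes when control replicate 2 is left out.

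A gene was called when its adjusted p was at most 0.05 and its absolute log2 fold change at least 1. With all 6 libraries 8 of the 10 members passed the filter and 1 of them, Vwf, was called lower in APPswe, while 3.60% of the 13484 genes tested were called lower. None was called higher, against 3.74% of all genes tested. At an unadjusted p under 0.05 edgeR gave 6 members lower and 0 higher, against 19.4% and 17.8% of all genes tested. DESeq2 also called 0 of the 10 members higher, against 516 of the 15002 genes to which it gave an adjusted p. Without control replicate 2 all 10 members passed the filter and all 10 were called lower, against 6.58% of 13753 genes, and 0 were called higher, against 4.87%. Tie1 and Cldn5 passed there because the filter then asks for enough counts in 2 libraries and not in 3, so their place in that count depends on the filter. With the genes held to those that passed with all 6 libraries, an alternative chosen after seeing the data, 8 of 8 members were called lower without control replicate 2, against 5.67% of 13484 genes. DESeq2 on all 6 libraries called 6 members lower (Cdh5, Emcn, Vwf, Cldn5, Egfl7 and Erg), against 4.05% of the 15002 genes to which it gave an adjusted p. With no filter on low counts edgeR tested all 10 members and called Vwf alone, against 2.92% of 17368 genes.

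In ranks the picture was similar. With all 6 libraries 1 of the 8 members tested, Vwf, had every APPswe library below every control, as did 22.2% of all genes tested. Once control replicate 2 was left out all 10 members did, as did 33.3% of all genes. The 8 members tested with all 6 libraries are among these 10, and the place of Tie1 and Cldn5 depends on the filter. Control replicate 2 was below each of the other 5 libraries for 8 of the 10 members and above each of them for 1, Vwf, while these shares were 29.0% and 27.4% of all genes. Cldn5 was at 0 in both control replicate 2 and APPswe replicate 1. The median log2 fold change over the 8 members that passed the filter was -3.17, and that over all genes tested was -0.0033. Without control replicate 2 the members' median was -4.16, or -4.07 with Cldn5 set to the bound of its counting interval and -3.74 over the same 8 members, and that over all genes was 0.01.

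The order of abundance within a library was read from the deposited FPKM, which divides by gene length. In control replicates 1 and 3 Emcn led at 56.4 and 53.7 FPKM. Egfl7 (15.4 and 17.3 FPKM), Pecam1 (15.8 and 16.5 FPKM) and Cdh5 (15.3 and 16.4 FPKM) followed together, with ranges that overlapped. Esam, Vwf, Erg, Cldn5 and Tie1 came after them, Cldn5 and Tie1 overlapping, and Tek was the lowest at 0.98 and 0.65 FPKM. In control replicate 2 the order was led by Vwf at 6.42 FPKM and Egfl7 at 1.87 FPKM, and no other member was above 0.18 FPKM. In the APPswe libraries Egfl7 led at 3.85, 3.95 and 4.74 FPKM, and Vwf (1.64, 1.76 and 1.75 FPKM) and Emcn (2.37, 1.20 and 1.41 FPKM) overlapped behind it. Emcn, which led in control replicates 1 and 3, was thus not the leading one in any of the other 4 libraries.

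The library names came in 2 styles, a hyphen in control replicates 1 and 2 and APPswe replicate 1, and a low line in control replicate 3 and APPswe replicates 2 and 3. What the style stands for is not given in the sources used here. Among the low-line libraries all 10 members were lower in APPswe replicates 2 and 3 than in control replicate 3, with log2 ratios of mean CPM from -5.56 for Cdh5 to -0.83 for Tek. Among the hyphen libraries APPswe replicate 1 lay below control replicate 1 and above control replicate 2 for 8 members. The exceptions were Vwf, which was below both controls, and Cldn5, which was at 0 in control replicate 2 and in APPswe replicate 1. The shares of all genes with these orders are not given here, so both counts only describe the members. With the style as a covariate Vwf was again called lower, at -1.75 on the log2 scale (edgeR adjusted p = 0.00568).

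The members lie on 8 chromosomes, with Tek and Tie1 on chromosome 4 and Cldn5 and Erg on chromosome 16 as the only shared ones. Proximal promoters are shown for 4 of them: Emcn, which led by FPKM in control replicates 1 and 3, the related receptors Tie1 and Tek, and Cldn5, which was nearly absent outside control replicates 1 and 3. Each run is 300 bases around the transcription start from RefSeq, GRCm38.p6, written 5′ to 3′ along the gene, and the capitals mark GGAA and its reverse complement TTCC, the core letters recognised by ETS factors such as Erg. The Emcn window is chr3:137340828-137341127 on the plus strand, Tie1 chr4:118489800-118490099 on the minus strand, Tek chr4:94739039-94739338 on the plus strand and Cldn5 chr16:18776597-18776896 on the plus strand. Most of the Tek window lies inside the gene span given above, downstream of the start of that span.
Emcn: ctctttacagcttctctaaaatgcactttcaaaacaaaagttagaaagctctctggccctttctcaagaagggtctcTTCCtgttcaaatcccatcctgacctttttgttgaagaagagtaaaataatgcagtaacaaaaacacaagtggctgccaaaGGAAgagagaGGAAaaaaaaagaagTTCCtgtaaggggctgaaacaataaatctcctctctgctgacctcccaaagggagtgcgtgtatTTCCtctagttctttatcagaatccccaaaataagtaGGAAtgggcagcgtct
Tie1: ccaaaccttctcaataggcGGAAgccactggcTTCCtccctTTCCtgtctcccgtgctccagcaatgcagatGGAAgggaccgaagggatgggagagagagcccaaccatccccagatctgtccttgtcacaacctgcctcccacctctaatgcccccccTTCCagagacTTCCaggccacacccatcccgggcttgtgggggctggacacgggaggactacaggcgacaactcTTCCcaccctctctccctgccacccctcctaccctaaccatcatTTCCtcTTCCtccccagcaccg
Tek: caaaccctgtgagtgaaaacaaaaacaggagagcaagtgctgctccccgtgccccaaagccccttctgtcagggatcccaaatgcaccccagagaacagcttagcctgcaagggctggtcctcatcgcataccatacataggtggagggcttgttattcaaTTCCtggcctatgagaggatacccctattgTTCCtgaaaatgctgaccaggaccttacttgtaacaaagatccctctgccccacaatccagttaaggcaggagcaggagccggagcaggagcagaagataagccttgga
Cldn5: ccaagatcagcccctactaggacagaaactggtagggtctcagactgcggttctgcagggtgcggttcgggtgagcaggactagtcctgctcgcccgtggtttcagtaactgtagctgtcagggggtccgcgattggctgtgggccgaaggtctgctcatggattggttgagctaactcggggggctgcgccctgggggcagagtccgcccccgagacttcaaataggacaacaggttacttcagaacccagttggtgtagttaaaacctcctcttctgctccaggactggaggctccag

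The promoter table held 10 windows for 6 of the 10 members (Egfl7, Emcn, Tek, Tie1, Cldn5 and Erg) and none for Pecam1, Cdh5, Vwf and Esam. GGAA, counted on both strands, occurred 9 times in the Tie1 window, 6 times in Emcn, 2 times in Tek and 0 times in Cldn5. Of all 32851 windows, 96.0% held it, with a median of 3 matches, and 1.59% held at least 9, 15.7% at least 6 and 4.01% none. The longer ETS form CAGGAAG, which contains GGAA, was found on either strand in 4 of the 10 windows and in 13.3% of all windows. The 4 were that of Emcn, 1 of the 3 of Erg and 2 of the 3 of Egfl7. CCGGAAG, which also contains GGAA, was found in 0 of the 10 and in 8.86% of all windows. The GATA form AGATAA was found in 2 of the 10, that of Tek and 1 of the 3 of Erg, and in 11.2% of all windows. These matches describe the letters of the windows only.

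Beyond the members, 47 other endothelial genes were examined, 32 of which passed the filter with all 6 libraries. Of these, 9 were called lower in APPswe (Kdr, Flt1, Flt4, Cd34, Eng, Ptprb, Icam2, Adgrl4 and Angpt2), against 3.60% of all genes tested, and 0 were called higher, against 3.74%. At an unadjusted p under 0.05, 17 were lower and 1 was higher, against the same 19.4% and 17.8% of all genes. DESeq2 called 0 of the 45 it tested higher, against 516 of 15002 genes. The count of 9 was 24 without control replicate 2, against 6.58% of all genes, and 5, 5 and 4 without APPswe replicates 1, 2 and 3. Those last fits called 242 of 13742, 237 of 13731 and 230 of 13742 genes lower. Kdr, Flt4, Ptprb and Icam2 were called whichever single library was left out, Cd34 was not called without APPswe replicate 3, and Flt1 and Eng were not called with any 1 APPswe replicate left out. In the fit without control replicate 2 a single gene, Clec14a, was called higher. The median log2 fold change of the list was -0.78 over the 32 genes, and -1.55 over 41 genes without control replicate 2. The genes that passed the filter only without that library were low in APPswe and high in control replicates 1 and 3, so both the 24 and this median depend in part on the filter. Held to the same 32 genes, the fit without control replicate 2 gave 15 called lower, against 5.67% of all genes, and a median of -0.83. Mmrn1 and Aplnr were at or under 3 counts in all 6 libraries. In control replicate 2, 20 of the 47 were at or under 3 counts, against 2 and 3 in control replicates 1 and 3 and 8, 12 and 8 in the APPswe libraries. The list summed to 2232, 2420 and 2367 CPM in the controls and 1670, 1795 and 1765 CPM in the APPswe libraries. Control replicate 2 was thus the highest library for this sum, unlike for the sum of the members.

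Several of the called genes resembled Vwf in being well represented in control replicate 2. Kdr, the main VEGF receptor of blood endothelium, was at 10.9, 25.5 and 12.6 CPM in the controls and 2.86, 2.90 and 3.20 CPM in the APPswe libraries. Flt4, the VEGF receptor of lymphatic and sprouting endothelium, was at 8.72, 13.9 and 9.54 CPM against 1.01, 0.947 and 0.899 CPM. Both were highest in the library where Cdh5 and Emcn were lowest, and in neither did the groups overlap. Flt4 fell, at -3.49 on the log2 scale (standard error 0.25, edgeR adjusted p = 0.000600), and at -3.25 (edgeR adjusted p = 1.21e-07) without control replicate 2. Kdr fell, at -2.45 (standard error 0.35, edgeR adjusted p = 0.00503), and at -1.97 (edgeR adjusted p = 1.12e-06) without that library. Eng, the TGF-beta co-receptor endoglin, which macrophages and stromal cells also carry, was at 82.5, 158 and 94.4 CPM against 47.1, 53.3 and 52.1 CPM. Its log2 change of -1.14 (edgeR adjusted p = 0.0191) became -0.80 without control replicate 2, where it was no longer called, as it was not with the name style as a covariate (edgeR adjusted p = 0.0572).

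Flt1, a decoy receptor for VEGF, Icam2, an adhesion molecule of resting endothelium and platelets, and Cd34, a sialomucin shared with progenitor and stromal cells, were above the APPswe level in all 3 controls, control replicate 2 included. Flt1 was at 2.54, 2.42 and 3.84 CPM in the controls and 0.953, 1.23 and 1.07 CPM in the APPswe libraries. Icam2 was at 4.39, 4.38 and 3.89 CPM against 1.74, 1.45 and 1.40 CPM, and Cd34 at 93.2, 83.4 and 88.2 CPM against 45.0, 44.7 and 39.1 CPM. The groups did not overlap for any of these 3 genes, and their log2 fold changes were -1.43, -1.46 and -1.04 (edgeR adjusted p = 0.0130, 0.00381 and 0.00100). Without control replicate 2 they were -1.55, -1.43 and -1.08.

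Adgrl4, an adhesion G protein-coupled receptor of sprouting vessels, and Angpt2, the angiopoietin released by activated endothelium, followed the members instead. Adgrl4 had 278, 10 and 247 counts in the controls and 14, 13 and 7 in the APPswe libraries, and Angpt2 had 768, 31 and 835 counts against 32, 40 and 43. Control replicate 2 fell among or below the APPswe libraries for both. Their log2 fold changes were -3.99 and -3.85 with all 6 libraries (edgeR adjusted p = 0.0430 and 0.0427) and -4.54 and -4.41 without control replicate 2 (edgeR adjusted p = 3.47e-08 and 2.05e-09). Neither was called when any other single library was left out, with the replicate number as a block (edgeR adjusted p = 0.121 and 0.138) or with the name style as a covariate (0.0822 and 0.0718). Ptprb, the phosphatase VE-PTP that restrains TIE2 signalling, lay between the patterns at 6.47, 2.87 and 6.66 CPM in the controls and 0.280, 0.390 and 0.562 CPM in the APPswe libraries. Its log2 fold change was -3.68 (edgeR adjusted p = 0.00300), and -3.97 without control replicate 2.

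By mean FPKM the most abundant genes of this list were Stab1, Nrp1, Nrp2, Cd93 and Cd34. Stab1, a scavenger receptor of sinusoidal endothelium and macrophages, was at 89.4, 104 and 102 FPKM in the controls and 94.9, 113 and 109 FPKM in the APPswe libraries. Its groups overlapped, and its log2 fold change was 0.03 (edgeR adjusted p = 0.868). Nrp1 and Nrp2, co-receptors for VEGF and semaphorins found on many stromal and myeloid cells, had log2 fold changes of -0.75 and -0.80 (edgeR adjusted p = 0.00200 and 0.00755), under the limit of 1. Cd93, shared with myeloid cells, was at 251, 367 and 228 CPM against 226, 213 and 213 CPM. Clec14a, named after its values were seen as the gene called higher without control replicate 2, ran the other way at 0.924, 0 and 1.47 CPM in the controls and 2.69, 3.12 and 3.43 CPM in the APPswe libraries, at a log2 ratio of 1.36 (edgeR adjusted p = 0.00113) without control replicate 2 and 1.94 (edgeR adjusted p = 0.131) with it.

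**Figure D3:**
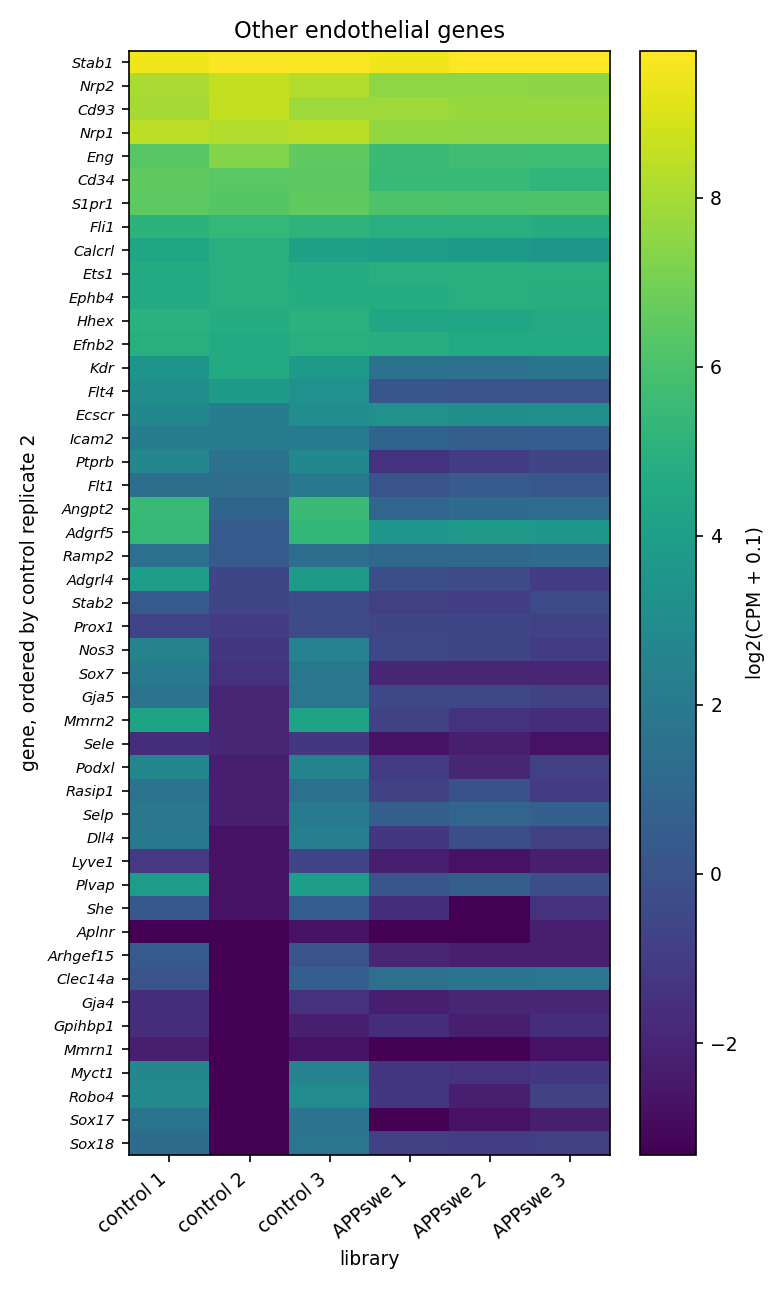
Level of each of the 47 other endothelial genes (rows) in each library (columns) as log2(CPM + 0.1) in colour, ordered by the level in control replicate 2. Most genes in the lower rows are dark in control replicate 2 and in most APPswe libraries and brighter in control replicates 1 and 3, and those in the upper rows are present in all 6 libraries.

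Counts of called genes in the lists that follow stand against the same shares of all genes tested. These were 3.60% lower and 3.74% higher with all 6 libraries, and 6.58% and 4.87% without control replicate 2. A gene near 0 in a single group passed the filter through the other group only, so these counts depend in part on the filter. The ligands and partners of the Tie receptors form a list of 6 genes, all tested, of which 2 were called lower (Angpt2 and Ptprb, both also counted above), with or without control replicate 2. Their summed level was 285, 192 and 307 CPM in the controls and 329, 347 and 321 CPM in the APPswe libraries, and most of it was Svep1, a large matrix protein that binds TIE1. Junction genes shared with epithelia and stroma gave 15 of 18 tested, with Jam2 and Cldn1 called lower, at summed levels of 1840, 1910 and 1855 CPM in the controls and 1978, 1953 and 1910 CPM in the APPswe libraries. Jam2, an adhesion molecule of endothelial and other borders, was at 32.3, 10.5 and 32.3 CPM in the controls and 5.89, 6.30 and 5.11 CPM in the APPswe libraries (log2 fold change -2.12, edgeR adjusted p = 0.0158), and without control replicate 2 at -2.48 (edgeR adjusted p = 2.50e-08). It was not called with any 1 APPswe replicate left out or with the replicate block. Cldn1, a claudin chiefly of epithelia, was at 3.70, 2.64 and 3.22 CPM against 0.561, 0.947 and 0.618 CPM (log2 fold change -2.16, edgeR adjusted p = 0.00385), and without control replicate 2 at -2.27 (edgeR adjusted p = 3.18e-05). Without that library 3 of 15 were called lower, Cgn joining at -2.02. Ctnnb1, which encodes beta-catenin and was the most abundant of these, lay between 552 and 676 CPM in all 6 libraries, and Cldn11 was at or under 3 counts throughout.

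Some members are shared with platelets, and 3 platelet genes were called in the opposite direction. Of 12 megakaryocyte and platelet genes 6 were tested, and Pf4, Ppbp and Itga2b were called higher in APPswe, against 3.74% of all genes tested. Nfe2 (1.14) joined without control replicate 2, where 4.87% of all genes were called higher. Itga2b was not called without APPswe replicate 2 or 3. The summed level was 20.8, 34.6 and 22.7 CPM in the controls and 231, 237 and 248 CPM in the APPswe libraries. The most abundant gene was Pf4, the platelet chemokine, at 11.9, 29.2 and 11.2 CPM against 214, 217 and 227 CPM. Gp1ba, Gp9, Gp6 and Gata1, which define the lineage, were at or under 3 counts in all 6 libraries, and Gp6 was at 0 in each.

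Stem and progenitor markers gave 7 of 12 tested, with Cd34 and Lmo2 called lower. Without control replicate 2, 8 were tested, 5 were called lower (Kit, Mecom and Procr in addition, at -2.83, -1.21 and -1.01) and Gata2 higher (1.12). The shares of all genes were 6.58% and 4.87%. Kit did not pass the filter with all 6 libraries. It passed here through control replicates 1 and 3, where it was high, so its place in the 5 depends on the filter. The summed level of this list was 360, 244 and 347 CPM in the controls and 174, 165 and 161 CPM in the APPswe libraries. Lmo2, a transcription cofactor of blood and endothelial cells, was the most abundant at 174, 104 and 167 CPM against 65.6, 59.7 and 61.7 CPM (log2 fold change -1.25, edgeR adjusted p = 0.00680; -1.45, edgeR adjusted p = 5.19e-08 without control replicate 2), and Slamf1 and Flt3 were at or under 3 counts throughout. Macrophage markers, all 13 of which were tested, reached summed levels of 23460, 18257 and 25107 CPM in the controls and 12523, 13487 and 13615 CPM in the APPswe libraries, most of it the lysozyme gene Lyz2. Only the endotoxin co-receptor Cd14 was called lower (log2 fold change -1.09, edgeR adjusted p = 0.0303), though not with any 1 APPswe replicate left out, the replicate block or the name style as a covariate, and without control replicate 2 only Lyz2 was (-1.02, edgeR adjusted p = 3.75e-07).

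The osteoblast label was checked against 14 markers, all tested, at summed levels of 18006, 17579 and 18859 CPM in the controls and 11656, 12237 and 12292 CPM in the APPswe libraries. Spp1, the most abundant, was called lower (log2 fold change -1.19, edgeR adjusted p = 0.00466) and the osteoblast transcription factor Sp7 higher (1.98, edgeR adjusted p = 0.0205). Without control replicate 2 their values were -1.36 (edgeR adjusted p = 1.44e-08) and 1.59 (edgeR adjusted p = 3.69e-06), and Bglap2, Dmp1 and Phex were called lower as well, at -1.12, -4.21 and -1.27. Sp7 was not called with control replicate 1 or any 1 APPswe replicate left out, or with the replicate block. The sum hides a gap in control replicate 2, where 4 of the 14 markers were at or under 3 counts against 0 in each of the others, and where the median marker was at 1.91 CPM against 18.5 to 26.7 CPM elsewhere. Ibsp, the bone sialoprotein gene, had 1468, 3 and 1371 counts in the controls and 985, 943 and 940 counts in the APPswe libraries.

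Mural cell markers, which belong to the cells wrapped around vessels, gave 11 of 12 tested, with Des, Cnn1 and Abcc9 called higher. Without control replicate 2, 5 were called higher, Acta2 (1.32) and Tagln (1.25) joining, and Mcam lower (-1.24). Abcc9 was not called with any 1 APPswe replicate left out. Their summed level was 1361, 2485 and 1387 CPM in the controls and 2752, 2821 and 2864 CPM in the APPswe libraries, led by the smooth muscle actin gene Acta2, and the pericyte channel gene Kcnj8 was at or under 3 counts throughout. Osteoclast markers gave 8 of 9 tested, with Acp5, Oscar, Ocstamp and Mmp9 called higher, against 3.74% of all genes tested. Dcstamp (1.71) joined without control replicate 2, where 4.87% of all genes were called higher. The summed levels were 346, 214 and 331 CPM in the controls and 784, 788 and 772 CPM in the APPswe libraries. Ctsk was the most abundant, and Calcr was at or under 3 counts throughout. Skeletal muscle markers gave 9 of 10 tested and all 9 called higher with or without control replicate 2, against 3.74% and 4.87% of all genes. Their summed level was 1.39, 9.11 and 1.92 CPM against 158, 154 and 159 CPM, with Acta1 the most abundant. Of the 10 genes 9, 2 and 6 were at or under 3 counts in control replicates 1, 2 and 3. Genes that low in the controls passed the filter through the APPswe libraries, so the count of 9 depends in part on the filter. The part of these other cell types in the endothelial values was not tested.

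**Figure D4:**
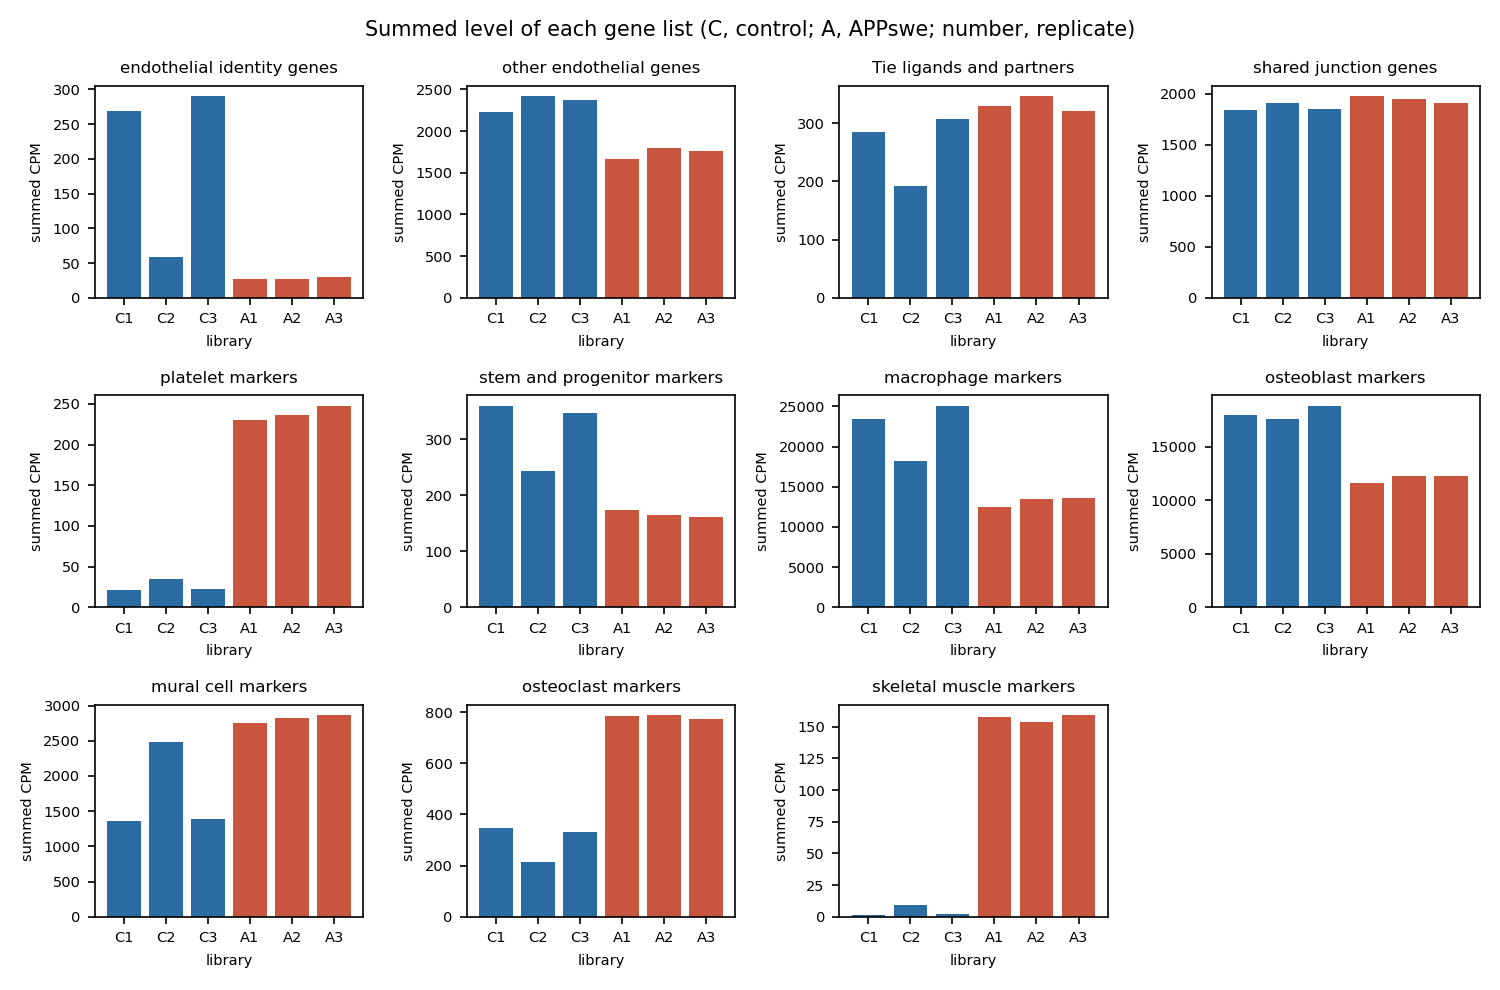
Summed CPM of each gene list in each library, with bars from 0, controls (C) in blue and APPswe (A) in red, each panel on its own scale. The endothelial identity panel shows 269 and 290 CPM in control replicates 1 and 3 and at most 58.7 CPM in the other libraries, while the platelet, osteoclast and muscle panels are highest in the APPswe libraries.

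Outside all lists, the 5 genes whose log2 CPM over the 6 libraries most resembled the log2 of the members' summed CPM were Fam241b, Mdh1, Ptprz1, Arhgap44 and Fam50a, with Pearson r of 0.999, 0.998, 0.998, 0.998 and 0.997 among 12793 candidate genes. The 6 points share the libraries, and the sum in control replicate 2 is almost all Vwf. Fam241b was at 6.64, 2.87 and 7.39 CPM in the controls and 1.85, 1.73 and 1.97 CPM in the APPswe libraries, at -1.60 on the log2 scale (edgeR adjusted p = 0.0242), and was called only with all 6 libraries or without control replicate 2 among the single omissions. The likeness is one of shape and not of size, since Mdh1, the cytosolic malate dehydrogenase gene, moved only between 160 and 204 CPM. The mouse App gene was at 983, 1287 and 1088 CPM in the controls and 1015, 1048 and 1048 CPM in the APPswe libraries, and since the human transgene was not counted separately it does not check the genotype labels.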

How the data were processed

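RNA of the sorted cells was sequenced by the authors on the DNBseq platform. Whole-number counts were used as the authors deposited them, with no prior scaling. FPKM, also deposited, served only for levels between genes and for alternative tests; blank cells, in 397 genes of the hyphen and 716 genes of the low-line libraries and in no member, were read as 0. Further columns of the authors, a log2 ratio and a p-value of APPswe against control, were deposited as well and not used. The submitters' processing notes name GRCm38; the aligner and counting tool are not given in the sources used here. Gene positions and promoters are from RefSeq GRCm38.p6.

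The tests ran under R 4.3.3 in edgeR 4.0.16 (TMM, filterByExpr, quasi-likelihood test without covariate), with Benjamini-Hochberg adjustment over all genes tested. The standard error is the size of the log2 fold change over the square root of F. Between 15461 and 15985 genes had a count in each library. The closest libraries, APPswe replicates 2 and 3, still differed by more than counting alone gives (chi-square over its degrees of freedom 1.59), and no libraries were merged. On this measure control replicates 1 and 3 differed by 6.17, and control replicate 2 differed from them by 76.2 and 80.8. Control replicates 1 and 3 differed from the APPswe libraries by 85.6 to 102, and control replicate 2 by 108 to 110. Alternatives used DESeq2 1.42.0, limma 3.58.1 on log2(FPKM + 1) or log2(FPKM + 0.1), other scalings, filters and thresholds, covariates and omitted libraries. The tests were also run on simulated counts in which no library was set apart. That check does not cover a library such as control replicate 2. The members, lists and other choices were made with earlier results of these data known.

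Named were all members; of the other endothelial genes those called and the 5 with the highest mean FPKM; of each other list the most abundant gene, defining genes at or under 3 counts throughout, and called genes where there were at most 6; 5 genes like the members' sum (log2 of CPM + 0.1, mean of at least 0); and App, Bglap and 4 Y-linked genes. Clec14a, Ibsp and the genes of other lists called only without control replicate 2 were named after their values were seen. Cd34, Angpt2 and Ptprb each stand in 2 lists. A listed marker gene is not reported here.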

Additional observations from a re-analysis of the deposited data

How the results depend on the processing

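Vwf was called lower under all 19 alternatives run for it, with log2 fold changes from -1.86 to -1.23. The other 9 members kept a negative log2 fold change under every alternative in which they were tested, and each was past both thresholds in 2, 3 or 4 of them. The count of 1 member called lower became 6 with DESeq2 and lay between 1 and 10 with single libraries left out, 10 without control replicate 2 and 1 without each of the others; DESeq2 without control replicate 2, chosen after seeing the data, also gave 10, and edgeR without it on the genes that passed the filter with all 6 libraries, chosen likewise, gave 8 of 8. Members called higher were 0 throughout. The cause of these differences was not tested.

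The count of 9 other endothelial genes called lower was 15 with DESeq2, 14 at an adjusted p alone, 2 with limma on log2(FPKM + 1) with or without a filter, 4 with limma on log2(FPKM + 0.1), and between 4 and 24 with single libraries left out. DESeq2 without control replicate 2 gave 24 lower and 1 higher, edgeR without it under the filter of all 6 libraries 15 lower and 1 higher, and single omissions gave between 0 and 1 higher. Over all genes, 486 were called lower and 504 higher. At an adjusted p alone these were 1622 and 1414, with limma on log2(FPKM + 1) 187 and 324, without its filter 170 and 305, and with log2(FPKM + 0.1) 287 lower. With at least 10 counts in every library 320 were called higher. DESeq2 without control replicate 2 gave 871 lower, and edgeR without it under the filter of all 6 libraries 764. Single omissions gave between 230 and 905 lower and between 281 and 670 higher; the lower counts were 242, 237 and 230 without APPswe replicates 1, 2 and 3.

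With the replicate number as a block, 1 member, 7 other endothelial genes and 324 genes in all were called lower, 0, 0 and 384 higher. Same-numbered libraries deviated from their group means with correlations of 0.07, -0.04 and 0.16, and control replicate 2 did not correlate best with its own number, so the numbers were not taken to pair the libraries. The library names ending in L3 belong to control replicate 3 and APPswe replicate 2 (correlation 0.12), which this block does not join. A count of 0 in a library leaves up to 3 counts possible.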
